A study of Mus musculus with 8 samples.

Results

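The effect of 4-phenylbutyrate (PBA) on gene expression in pancreatic islets of wild-type mice was read from 4 of the 8 arrays of the series, chosen by their titles: 2 arrays of islets from PBA-treated wild-type mice and 2 of islets from untreated wild-type mice. All 17097 genes with a value were compared. Islets of Langerhans, the hormone-secreting cell clusters of the pancreas, were isolated from mice aged 20 weeks, which had received PBA at 1 g/kg/day in water for 12 weeks, from the age of 8 weeks, or had been left untreated. The strain background of every array, the wild type included, is labelled FVB/N-Tg(Ins2-IAPP)RFHSoel/J, and the wild-type mice are those without the hIAPP transgene, human islet amyloid polypeptide under the insulin gene Ins2 promoter. The other 4 arrays were 2 of untreated and 2 of PBA-treated hIAPP transgenic mice. They entered the estimate of the spread, the choice of 1 probe set per gene by its mean level, and some alternative fits. At the end they served to compare the PBA response between genotypes. The labels do not say whether an array holds islets of 1 animal or a pool, so p-values here reflect how far these samples spread, which may be technical.

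PBA is a small aromatic fatty acid that is used as a chemical chaperone, which eases protein folding in the endoplasmic reticulum (ER). It also inhibits histone deacetylases and is given as a nitrogen scavenger, since its product phenylacetate is excreted bound to glutamine. Sterol synthesis, one of the pathways followed here, is controlled by SREBP-2, a membrane-bound transcription factor that is held in the ER by the Insig proteins when sterol is plentiful and is released to switch on the mevalonate pathway when sterol is low. The acute phase response, another, is a set of secreted defence proteins that cytokines of the interleukin-6 family switch on through the transcription factor STAT3.

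Levels are on the log2 scale, so a difference of 1 is a 2-fold change, and levels of different genes were not compared. The arrays carried strong islet hormone signals: Ins2 was at 14.05 in both wild-type groups, the glucagon gene Gcg at 12.95 and 13.00, the somatostatin gene Sst at 12.70 and 12.90 and the pancreatic polypeptide gene Ppy at 13.45 and 13.35, untreated and treated. Pearson's correlation across genes was 0.9942 between the untreated arrays, 0.9933 between the treated arrays and 0.9895 to 0.9935 across the groups. PBA-treated wild type 1 stood apart in its 9 hybridisation control probe sets, whose median level was 6.60, against 9.30 to 9.40 on the other wild-type arrays. Digestive enzyme RNA differed within groups: the median level of 29 acinar markers was 12.00 and 10.40 on the untreated arrays and 11.60 and 10.50 on the treated ones. Non-specific control probe sets, which read background, had a median of 3.10 and a 95th percentile of 4.69.

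Among the genes that rose with PBA in wild-type islets were 7 sterol synthesis genes, the neuropeptide gene Npy and the ERK-responsive genes Etv5 and Dusp4. Among those that fell were S100a8, S100a9, Stat3, Serpina3n, C4b and the macrophage chemokine gene Ccl9. By limma, 50 of 17097 genes (0.292%) passed an adjusted p of 0.05, 25 of them higher (0.146%) and 25 lower (0.146%). At least 2-fold changes were found in 16 genes that rose and 23 that fell, and the smallest change that passed was 0.70. All 50 had no overlap between the treated and the untreated arrays, which was true of 13.6% of all genes in the raised and 14.9% in the lowered direction. The median fold change over all genes was 0.00. For 10 of the 50 the mean of the lower group was under 4.69, so their folds depend on signal close to background. Of 30 further probe sets for 20 of these genes, 28 moved the same way, and so did all 17 that were above background. The calls need all 8 arrays: leaving out any 1 of the 4 wild-type arrays or of the untreated hIAPP arrays gave 0 genes past the threshold, and leaving out either PBA-treated hIAPP array gave 2. A fit of the 4 wild-type arrays alone gave 0, a filter on dim genes 87 and a variance prior that was both robust and trended on intensity 300 (0.795% of all genes higher and 0.959% lower). Leaving out 1 array could not turn the direction of any of the 50, since their treated and untreated arrays did not overlap. Without PBA-treated wild type 1 the median size of the 50 changes was 1.10, against 1.12 with it. It was also 1.10 without each other wild-type array. The choice of genes whose replicates lie close together favours such steadiness, so it does not clear that array.

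**Figure D1:**
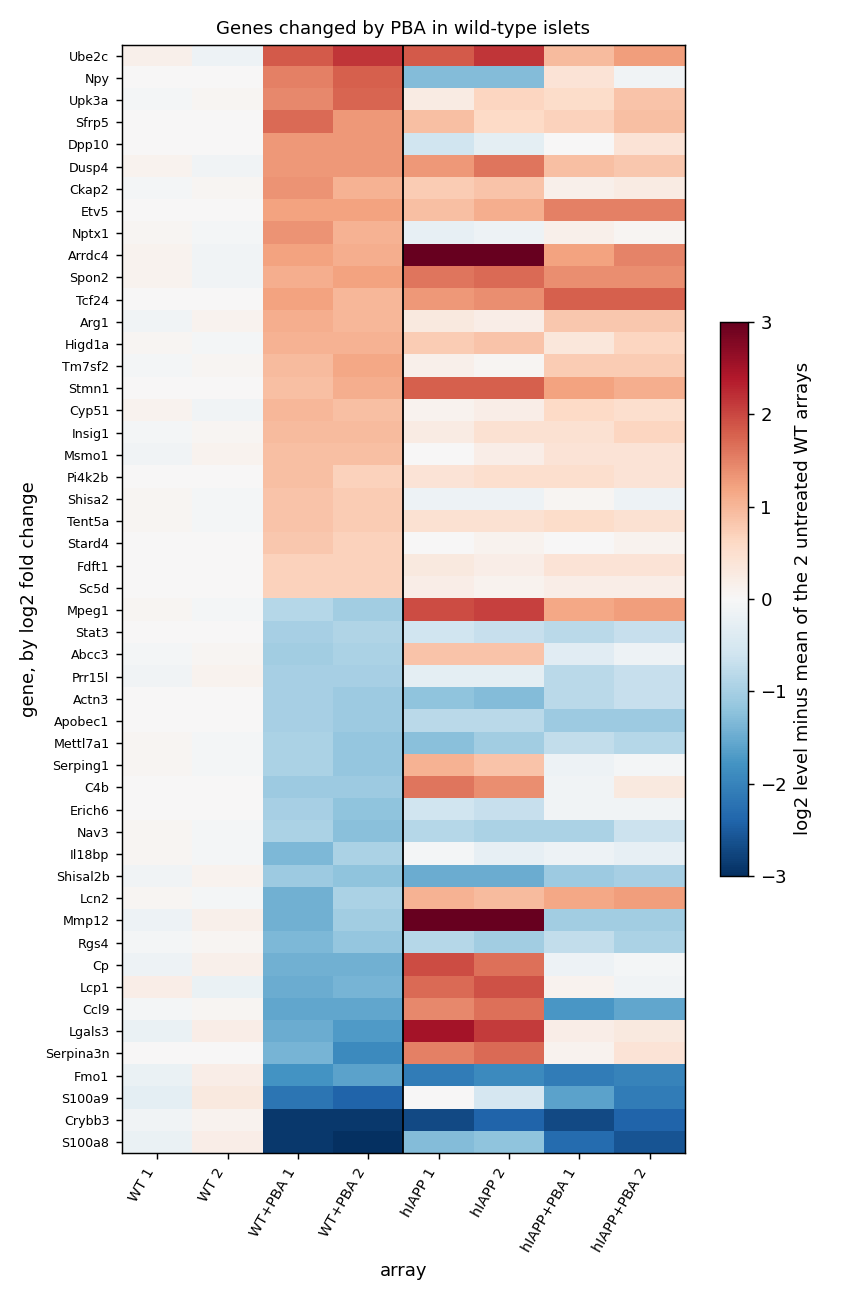
Log2 level of the 50 genes past the threshold on each of the 8 arrays, minus the mean of the 2 untreated wild-type arrays, with genes ordered by fold change and the colour scale ending at 3 in either direction. The 2 PBA-treated wild-type arrays share 1 direction for every gene, as the choice of genes favours. The hIAPP arrays to the right of the line, which entered the choice only through the spread and the probe set picked per gene, differ in direction.

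**Figure D2:**
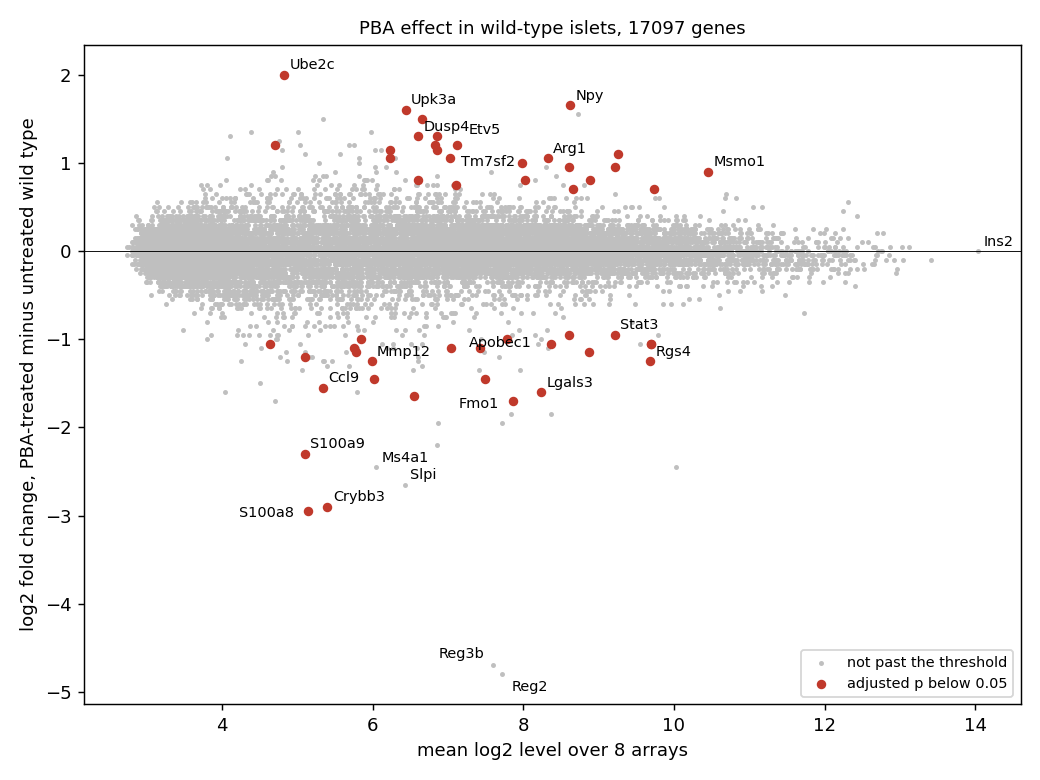
Log2 fold change of PBA-treated over untreated wild-type islets against the mean log2 level over 8 arrays for 17097 genes (points), with the 50 past the threshold in red. The 2 lowest points, Reg2 at -4.80 and Reg3b at -4.70, did not pass, and Ins2 lies at 0.00 at the right end.

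Of 19 measured sterol synthesis genes, 7 rose and none fell by limma (0.146% of all genes in each direction), and 11 rose with the robust trended prior. An unadjusted p below 0.05 was found for 17, against 10.5% of all genes, and the list's median log2 fold change was 0.70. The treated arrays were above both untreated arrays in 17 of the 19 (89.5%), against 13.6% of all genes. With each wild-type array left out in turn, the median was 0.55 to 0.70. When the acinar level entered the fit as a covariate, the fold changes of the 7 genes were 0.70 to 1.04, and Tm7sf2 alone passed (adjusted p = 0.0399, and at least 0.0563 for the other 6).

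Promoters of this pathway are known to be bound by SREBP-2 and by the CCAAT-binding factor NF-Y, so RefSeq promoter windows (build GRCm38.p6) were searched for the letters of both elements, in the 250 bases before the start site and on both strands. Of the 19 members, 15 had a window in the table and 4, Fdps, Fdft1, Sqle and Stard4, had none. The letters CCAAT occurred before the start of all 15, against 37.5% of all 27025 genes with a window. Counted by window, they occurred in 15 of 17 (88.2%), against 33.8% of 32851 windows. TCACNCCAC, 1 form of the sterol response element, occurred in 1 of the 15, Hmgcs1, against 1.22% of all genes. It occurred in 0 of the 5 genes that rose by limma and had a window. Other forms of the element were not searched, so a stretch without these letters may still hold one. A match is only a match of letters and does not show binding. The stretches before the start sites of 5 genes that rose and of Hmgcs1 are shown to let the spacing of these letters be seen, each ending at the base before the start. They are 150 bases long, or 250 for Insig1, whose match lies farther out. Capitals mark CCAAT or its complement ATTGG and, in Hmgcs1, also TCACNCCAC.
Tm7sf2, chr19:6067851-6068000, minus strand: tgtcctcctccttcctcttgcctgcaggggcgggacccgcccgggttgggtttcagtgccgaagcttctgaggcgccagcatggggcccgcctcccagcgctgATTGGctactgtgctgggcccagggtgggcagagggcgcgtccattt
Cyp51, chr5:4104698-4104847, minus strand: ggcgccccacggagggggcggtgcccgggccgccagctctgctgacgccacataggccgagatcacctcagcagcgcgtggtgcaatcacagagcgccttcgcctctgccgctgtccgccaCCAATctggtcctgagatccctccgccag
Insig1, chr5:28071162-28071411, plus strand: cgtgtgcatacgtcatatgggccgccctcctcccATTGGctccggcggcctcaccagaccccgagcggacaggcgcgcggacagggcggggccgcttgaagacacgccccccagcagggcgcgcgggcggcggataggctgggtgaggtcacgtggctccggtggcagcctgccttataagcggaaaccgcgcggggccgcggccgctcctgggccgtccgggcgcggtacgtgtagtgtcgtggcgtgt
Msmo1, chr8:64733579-64733728, minus strand: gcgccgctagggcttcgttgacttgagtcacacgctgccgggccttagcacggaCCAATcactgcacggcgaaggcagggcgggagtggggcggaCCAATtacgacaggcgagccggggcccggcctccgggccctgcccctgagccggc
Sc5d, chr9:42264301-42264450, minus strand: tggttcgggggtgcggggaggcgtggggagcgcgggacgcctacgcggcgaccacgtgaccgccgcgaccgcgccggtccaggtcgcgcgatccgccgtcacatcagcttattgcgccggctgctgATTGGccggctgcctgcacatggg
Hmgcs1, chr13:119690201-119690350, plus strand: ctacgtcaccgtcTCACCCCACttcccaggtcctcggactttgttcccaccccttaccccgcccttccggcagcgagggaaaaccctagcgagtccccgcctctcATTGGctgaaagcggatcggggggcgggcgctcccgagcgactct

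Early steps of the pathway make the isoprenoid units. Hmgcs1, the synthase that starts it, was at 4.0 and 3.7 untreated and 4.8 and 4.4 with PBA (0.75, SE 0.21, adjusted p = 0.269), near background. Idi1, the isomerase of the isoprenoid units, was at 7.8 and 8.0 and then at 8.9 and 8.8, a difference of 0.95 (SE 0.13) that missed the threshold narrowly (adjusted p = 0.0504). Mvk (0.40), Mvd (0.70) and Fdps (0.50) did not pass either. Fdft1, which makes squalene and so commits carbon to sterols, was at 9.4 on both untreated and 10.1 on both treated arrays and rose by 0.70 (SE 0.09, adjusted p = 0.0423). For all of these genes the treated arrays lay above the untreated ones.

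The later steps turn lanosterol into cholesterol. Cyp51, the lanosterol demethylase, was at 8.3 and 8.1 and then at 9.2 and 9.1, a rise of 0.95 (SE 0.11, adjusted p = 0.0250). Its other probe sets gave 0.75 and 0.70. Tm7sf2, a sterol reductase gene, showed the largest change of the pathway, from 6.5 and 6.6 to 7.5 and 7.7 (1.05, SE 0.11, adjusted p = 0.0197). Msmo1, the sterol C4-methyl oxidase gene, rose from 10.10 ± 0.14 (SD, n = 2) to 11.0 on both treated arrays (0.90, SE 0.12, adjusted p = 0.0384). Sc5d, a sterol desaturase gene, was at 8.4 on both untreated and at 9.1 on both treated arrays (0.70, SE 0.09, adjusted p = 0.0423). Further Sc5d probe sets gave 0.30 and 0.60. Sqle (0.40), Lss (0.65), Nsdhl (0.40) and Dhcr7 (0.55) did not pass. Hsd17b7 (0.10) and Ebp (-0.05) were the 2 members whose arrays overlapped between the groups.

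Genes that sense or move sterol were among those raised. Insig1, the ER anchor of SREBP and itself a target of it, went from 8.7 and 8.8 to 9.7 on both arrays (0.95, SE 0.12, adjusted p = 0.0325). Stard4, a cytosolic sterol carrier, rose by 0.75 (SE 0.10, adjusted p = 0.0423), and 0.70 and 0.95 were read from its other probe sets. The SREBP-2 gene Srebf2 was at 6.7 and 6.8 and then at 7.2 on both (0.45, SE 0.11, adjusted p = 0.220). Of 10 genes of cholesterol efflux, a list added after values were seen, none passed, and their median was -0.08. The fatty acid branch had 0 of 17 members past the threshold and a median of 0.00. Within it the desaturase gene Fads2 was at 5.55 ± 0.07 and 6.70 ± 0.42 (SD, n = 2 each; 1.15, adjusted p = 0.111) and the elongase gene Elovl6 at 8.75 and 8.25 (-0.50, adjusted p = 0.129).

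**Figure D3:**
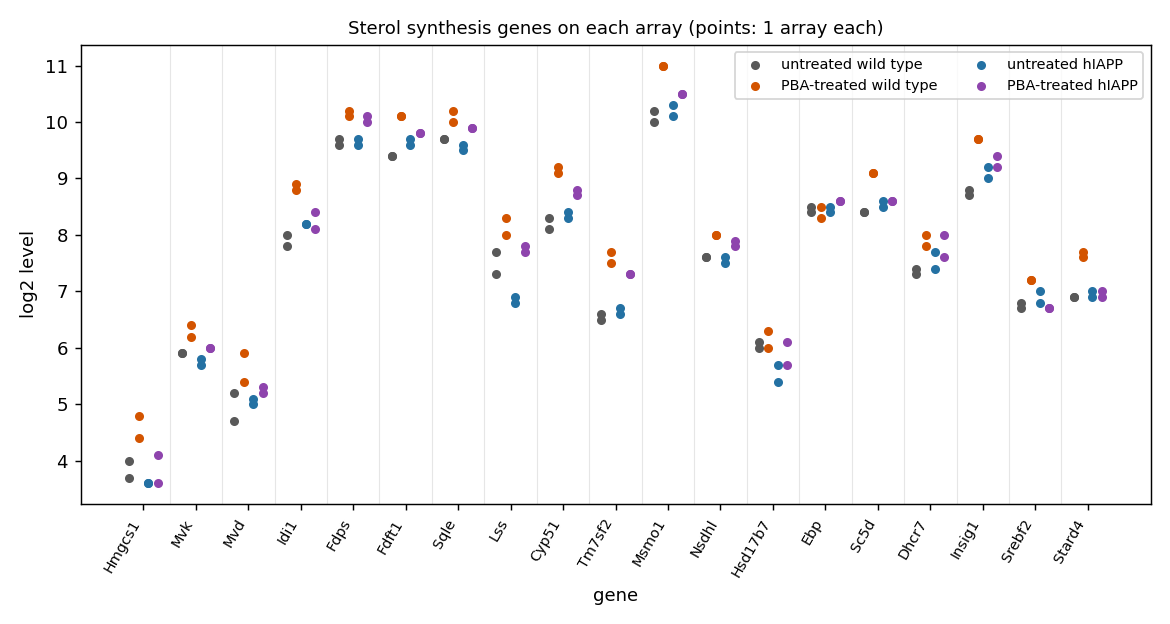
Log2 level of the 19 measured sterol synthesis genes on each array, 2 points for each of the 4 groups. PBA-treated wild-type arrays (orange) lie above both untreated wild-type arrays (grey) for every gene but Hsd17b7 and Ebp, as for Fdft1 at 10.1 on both against 9.4 on both.

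Genes of calprotectin and of the acute phase were among those that fell. S100a8 and S100a9 code for the 2 chains of calprotectin, a secreted alarm protein. S100a8 was at 6.6 and 7.0 on the untreated and at 3.9 and 3.8 on the treated arrays, a change of -2.95 (SE 0.16, adjusted p = 0.0022) to a level near background. S100a9 went from 5.9 and 6.5 to 4.0 and 3.8 (-2.30, SE 0.26, adjusted p = 0.0239). In both genes the treated arrays lay under 4.69, within the range of the background probe sets. Lcn2, the iron-binding lipocalin of the acute phase, was at 4.9 and 4.8 and then at 3.4 and 3.9 (-1.20, SE 0.16, adjusted p = 0.0471). Neutrophils carry all 3 transcripts. Granule genes of these cells such as Ngp, Camp, Ltf, Elane and Mpo were within background, at 3.1 to 4.1 on all 4 arrays. Of 13 measured neutrophil genes, 9 were below the 95th percentile of the controls on every wild-type array, and the summed linear signal of the 13 was 327 and 377 untreated and 161 and 167 treated. This list was added after values were seen, so its counts are descriptions only. By limma 3 of its members fell (0.146% of all genes), and the median was -0.20. Both treated arrays lay below both untreated ones in 7 of the 13, against 14.9% of all genes. The part of such cells in the result was not tested. With the acinar covariate Lcn2 did not pass (adjusted p = 0.101).

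Stat3, the transcription factor gene of this response, was at 9.8 on both untreated arrays and at 8.8 and 8.9 on the treated ones, a fall of 0.95 (SE 0.10, adjusted p = 0.0197). A second Stat3 probe set, near background, gave -0.35. Serpina3n, a serine protease inhibitor gene, went from 6.5 on both arrays to 5.1 and 4.6 (-1.65, SE 0.18, adjusted p = 0.0216). Ceruloplasmin, the copper oxidase encoded by Cp, fell from 5.95 ± 0.21 to 4.50 ± 0.00 (SD, n = 2 each), a change of -1.45 (SE 0.14, adjusted p = 0.0197), and a second Cp probe set was within background. C4b, a complement component, was at 7.3 on both untreated and 6.2 on both treated arrays (-1.10, SE 0.15, adjusted p = 0.0423), and Serping1, the inhibitor of complement C1, at 9.8 and 9.7 and then at 8.8 and 8.6 (-1.05, SE 0.12, adjusted p = 0.0239). Il18bp, a secreted trap of the cytokine interleukin-18, fell by 1.15 (SE 0.15, adjusted p = 0.0423). With the acinar covariate C4b (adjusted p = 0.0970) and Serping1 (0.0591) did not pass.

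Lists of these families were drawn up after values were seen, so their counts beside the share of all genes are descriptions only. In the acute phase and STAT3 list, 5 of 28 measured members fell and none rose, with a median of -0.53, against 0.146% of all genes, and 12 fell with the robust trended prior. Among its members that did not pass, Slpi, an antiprotease gene, was at 7.9 and 6.6 and then at 4.2 and 5.0 (-2.65, SE 0.43, adjusted p = 0.0828). Lrg1 was at 5.8 and 6.0 and then at 4.4 and 4.8 (adjusted p = 0.116), and the STAT3 feedback gene Socs3 at 7.4 and 7.2 and then at 6.3 and 6.7 (adjusted p = 0.155). The serum amyloid genes Saa1 (0.20) and Saa2 (0.00) were within background. In the complement list 2 of 15 members, C4b and Serping1, fell (5 with the robust trended prior), and the median was -0.55. With each wild-type array left out the acute phase median was -0.57 to -0.47 and the complement median -0.65 to -0.35. Macrophage markers moved with these lists, with 27 of 32 not overlapping downwards against 14.9% of all genes, and their part in the result was not tested.

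Of 32 measured macrophage markers, 3 fell by limma (0.146% of all genes) and none rose, and 11 fell with the robust trended prior. The median was -0.57, and 27 (84.4%) had both treated arrays below both untreated ones, against 14.9% of all genes. Ccl9, a macrophage chemokine gene, was at 5.7 and 5.8 and then at 4.2 on both (-1.55, SE 0.12, adjusted p = 0.0149). Mpeg1, a pore-forming protein gene of macrophages, went from 8.1 and 8.0 to 7.2 and 7.0 (-0.95, SE 0.11, adjusted p = 0.0250). Mmp12, the macrophage elastase gene, went from 5.6 and 5.9 to 4.3 and 4.7 (-1.25, SE 0.17, adjusted p = 0.0423). The leukocyte surface gene Ptprc was at 7.9 and 7.2 and then at 6.7 and 6.0 (-1.20, SE 0.28, adjusted p = 0.209), Cd68 at 6.0 and 6.2 and then at 5.3 and 5.2 (-0.85, SE 0.15, adjusted p = 0.104), and C1qa at 9.6 and 9.5 and then at 9.8 on both (0.25, adjusted p = 0.517).

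Lgals3 and Lcp1, which are high in myeloid cells, also fell. Lgals3, the galectin-3 gene, went from 8.00 ± 0.28 to 6.40 ± 0.14 (SD, n = 2 each), a difference of -1.60 (adjusted p = 0.0239). Lcp1, the actin-bundling protein of leukocytes, fell by 1.45 (SE 0.16, adjusted p = 0.0212), with -0.95 on its other probe set. Ccl6, a relative of Ccl9, was at 6.3 on both and then at 4.5 and 4.9 and did not pass (adjusted p = 0.0662). The summed linear signal of the 32 macrophage markers was 6675 and 6194 untreated and 4880 and 4644 treated. In RNA of whole islets, fewer cells of a type and less RNA per cell cannot be told apart. The list's median was -0.65 to -0.60 with each wild-type array left out.

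**Figure D4:**
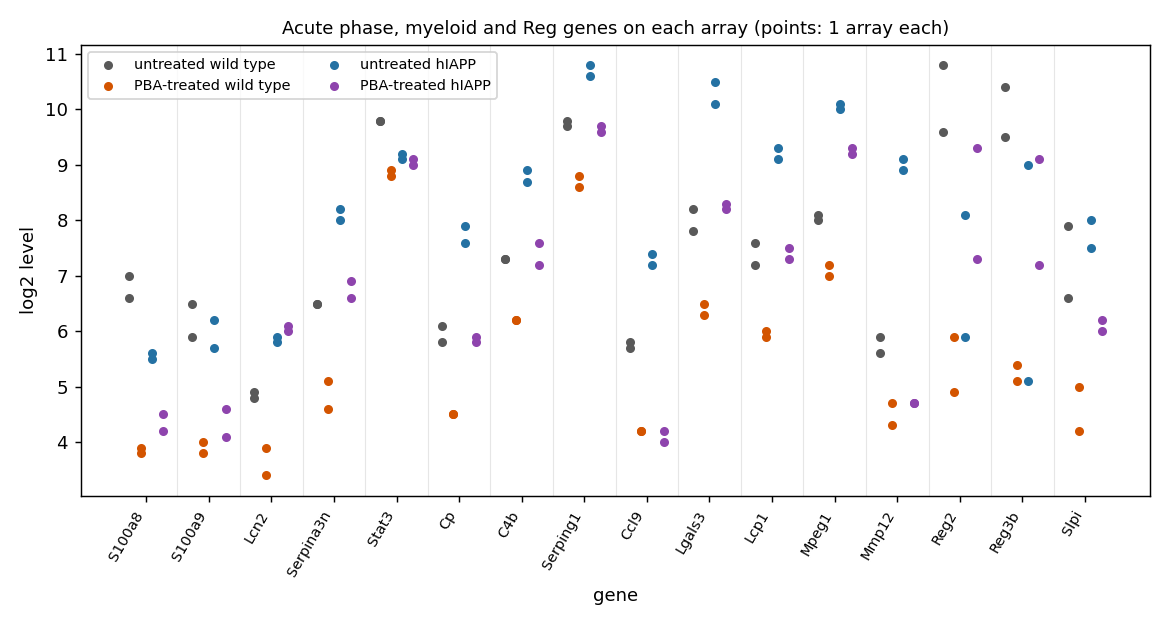
Log2 level of 16 acute phase, myeloid and Reg genes on each array, 2 points for each of the 4 groups. PBA-treated wild-type arrays (orange) lie below both untreated wild-type arrays (grey) for each of the 16, as for S100a8 at 3.9 and 3.8 against 6.6 and 7.0, while Reg2 and Reg3b spread over several units within the hIAPP groups.

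Markers of other cell types that islets can carry gave no call. Lymphocyte markers had a median of -0.42 with 0 of 14 past the threshold, and this median was 0.00 without untreated wild type 1. Their summed signal was 917 on that array and 228 to 269 on the other 3. Stellate and matrix markers (median -0.15, 0 of 25), endothelial markers (0.00, 0 of 23), duct markers (-0.05, 0 of 18), Schwann cell markers (0.00, 0 of 9), adipocyte markers (-0.20, 0 of 9) and red blood cell markers (0.28, 0 of 6) did not pass either. The acinar list, with 0 of 29, had a median of -0.15 that ran from -0.85 to 0.50 with single arrays left out. An unadjusted p below 0.05, which 10.5% of all genes had, was found for 6 of the endothelial, 4 of the stellate, 3 of the lymphocyte and 2 each of the acinar, duct and red blood cell markers, 1 adipocyte marker and 0 Schwann cell markers. With the robust trended prior 3 endothelial, 2 stellate and 1 adipocyte marker fell, 1 duct and 1 red blood cell marker rose, and no acinar, lymphocyte or Schwann cell marker passed. A fit with the acinar level as a term kept 34 of the 50 calls.

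The 2 largest differences belonged to Reg genes, which code for secreted lectins of the pancreas that respond to injury, and none of the 7 measured members passed by limma, 3 having an unadjusted p below 0.05. Reg2 was at 10.8 and 9.6 untreated and 5.9 and 4.9 with PBA (-4.80, SE 0.89, adjusted p = 0.115). Reg3b was at 10.4 and 9.5 and then at 5.1 and 5.4 (-4.70, SE 1.17, adjusted p = 0.244). Neither overlapped between the groups. Both varied widely in hIAPP islets, from 5.9 to 9.3 for Reg2 and from 5.1 to 9.1 for Reg3b, and this spread enters the SE. Reg3a was at 4.7 and 4.2 and then at 3.4 and 3.5 (-1.0, adjusted p = 0.108). Reg1, which acinar cells make, was at 12.0 and 10.4 and then at 11.2 and 10.2. The acinar median was likewise higher on the first array of each wild-type group. In the hIAPP groups it was lower on the first array (10.90 and 12.20 untreated, 8.00 and 9.70 with PBA).

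Of the 25 genes that rose, 18 lie outside the sterol list. Npy, the neuropeptide Y gene, was at 8.5 on both untreated arrays and at 10.15 ± 0.21 (SD, n = 2) on the treated ones, a rise of 1.65 (SE 0.18, adjusted p = 0.0198). It is also the only member of 20 in the list of beta-cell immaturity and disallowed genes that passed, and that list had a median of -0.05. Neurog3, the endocrine progenitor factor gene, is on it too and was at 5.40 and 6.45 in the means (1.05, SE 0.18, adjusted p = 0.0983). Of 19 neuropeptide genes, a list added after values were seen, Npy alone passed, and the median was 0.00.

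Etv5 and Dusp4 are switched on by ERK signalling, the first as a transcription factor and the second as a phosphatase that ends the signal. Etv5 was at 6.2 on both untreated and at 7.4 on both treated arrays (1.20, SE 0.10, adjusted p = 0.0189). Dusp4 went from 5.8 and 5.6 to 7.0 on both arrays (1.30, SE 0.13, adjusted p = 0.0197). The rest of the 13 measured ERK feedback genes, chosen after values were seen, did not pass, with Spred2 at 0.40 (adjusted p = 0.244), Spry1 at 0.05 and Dusp6 at -0.05. The median of the list was 0.20.

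Sfrp5, a secreted inhibitor of Wnt signalling, was at 5.9 on both and then at 7.6 and 7.2 (1.5, SE 0.17, adjusted p = 0.0216). Upk3a, a uroplakin gene, rose by 1.60 (SE 0.18), with arrays at 5.7 and 5.8 and then at 7.2 and 7.5 (adjusted p = 0.0216). Dpp10, which codes for a partner of voltage-gated potassium channels, was at 6.6 on both untreated and at 7.9 on both treated arrays (1.30, SE 0.16, adjusted p = 0.0291). The neuronal pentraxin gene Nptx1 (1.20), the matrix gene Spon2 (1.15), the transcription factor gene Tcf24 (1.10) and the hypoxia-inducible mitochondrial gene Higd1a (1.05) rose with adjusted p of at most 0.0250. A second Spon2 probe set, near background, gave 0.05. Arrdc4, an arrestin-domain gene that glucose induces, rose by 1.15 (SE 0.13, adjusted p = 0.0250), whereas its relative Txnip was at 10.10 and 10.20 (0.10, adjusted p = 0.821). A second Arrdc4 probe set, above background, gave only 0.30. Arg1, the arginase that releases urea, went from 7.7 and 7.9 to 8.9 and 8.8 (1.05, SE 0.11, adjusted p = 0.0197) and was the 1 member of 23 in the glutamine and urea list to pass, whose median was 0.05. Tent5a, Shisa2 and Pi4k2b also rose, each by 0.80.

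Ube2c, Ckap2 and Stmn1, which act in dividing cells, rose. Ube2c, which feeds the ubiquitin ligase of mitosis, had the largest rise of all 25, from 3.7 and 3.4 to 5.4 and 5.7 (2.0, SE 0.18, adjusted p = 0.0189), starting within background. Ckap2, of the mitotic spindle, rose from 4.1 and 4.2 to 5.5 and 5.2 (1.20, SE 0.13, adjusted p = 0.0197), and the microtubule gene Stmn1 from 7.0 on both to 7.9 and 8.1 (1.00, SE 0.11, adjusted p = 0.0197). None of these is on the list of 32 cell cycle genes, of which 0 passed by limma, 6 rose with the robust trended prior and 13 had an unadjusted p below 0.05, against 10.5% of all genes. Of the 32, 18 (56.2%) had both treated arrays above both untreated ones (13.6% of all genes) and the median was 0.30. Top2a was at 3.4 and 3.2 and then at 4.4 and 4.9 (1.35, SE 0.20, adjusted p = 0.0662), Mki67 at 4.3 and 3.8 and then at 5.3 and 5.0 (1.10, SE 0.18, adjusted p = 0.0836), and Cdk1 at 4.2 and 3.5 and then at 5.1 and 5.3. Of the 32, 13 stayed below the 95th percentile of the controls on all 4 arrays.

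The remaining genes that fell had varied roles. Crybb3, a lens-type crystallin gene, was at 7.3 and 7.5 untreated and at 4.5 on both treated arrays (-2.90, SE 0.15, adjusted p = 0.0022). Fmo1, a flavin monooxygenase gene, went from 9.1 and 9.5 to 7.5 and 7.7 (-1.70, SE 0.16, adjusted p = 0.0189). Rgs4, a brake on G protein signalling, was at 10.4 and 10.5 and then at 9.1 and 9.3 (-1.25, SE 0.13, adjusted p = 0.0197), and its other probe sets gave -1.20 and -1.25. Apobec1, the RNA-editing deaminase gene, was at 9.1 on both and then at 8.1 and 8.0 (-1.05, SE 0.09, adjusted p = 0.0189). The transporter gene Abcc3 (-1.0), the muscle actinin gene Actn3 (-1.05), Mettl7a1 (-1.05), Shisal2b (-1.15), Erich6 (-1.10), Nav3 (-1.10) and Prr15l (-1.0) fell with adjusted p of at most 0.0423.

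Genes of ER folding and stress, of histone deacetylation and of branched-chain amino acid breakdown gave no call in this comparison. Of 28 ER chaperones and folding enzymes 0 passed by limma and 1 had an unadjusted p below 0.05, with a median of 0.05, and 2 of them are named here: the main chaperone gene Hspa5 (11.45 and 11.35) and Sdf2l1 (10.80 and 11.30, adjusted p = 0.149). UPR sensors and ERAD genes had a median of 0.10 and 0 of 25 past the threshold (4 at an unadjusted p below 0.05). In this list 21 of the 25 fold changes were above 0, and 13 had both treated arrays above both untreated ones, against 13.6% of all genes. Derl3, of the ER exit channel, was at 7.90 and 8.65 (adjusted p = 0.163), and Xbp1 at 11.90 and 12.00. The ATF4 and CHOP list (median 0.10, 0 of 31, 6 at an unadjusted p below 0.05) held Atf4 at 10.70 and 11.05 (adjusted p = 0.269), Ddit3 at 8.3 and 8.2 and then at 8.4 and 8.6 (adjusted p = 0.517) and Trib3 at 5.55 and 5.65. In this list 21 fold changes were above 0. Both treated arrays lay above both untreated ones in 14 of the 31 (13.6% of all genes) and below them in 4 (14.9%). An unadjusted p below 0.05 was found for 10.5% of all genes. With the robust trended prior 3 members of this list, 1 ER chaperone or folding enzyme and 1 UPR or ERAD gene rose (0.795% of all genes), and none fell. Heat shock proteins (0.00, 0 of 20), histone deacetylases (0.05, 0 of 14), genes that deacetylase inhibitors raise in other cells (0.03, 0 of 18) and branched-chain amino acid breakdown (0.05, 0 of 21) had medians within 0.05 of that of all genes, and 1 to 4 members each at an unadjusted p below 0.05. With the robust trended prior 1 heat shock gene and 1 gene of the deacetylase inhibitor list fell, and no member of these lists rose. In the deacetylase inhibitor list the metallothionein gene Mt1 was at 12.0 and 12.1 and then at 11.3 and 11.4 (-0.70, adjusted p = 0.0608), and Cdkn1a was at 7.10 and 6.95.

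Beta-cell identity, other hormone and exocytosis genes gave no call either. The identity and secretion list had a median of 0.08 and 0 of 26 past the threshold by limma (3 at an unadjusted p below 0.05). Within it Trpm5, a cation channel gene, was at 10.05 and 10.75 (0.70, SE 0.14, adjusted p = 0.150), Pdx1 at 9.40 and 9.45, the glucose transporter gene Slc2a2 at 12.05 and 12.25 and the maturity marker Ucn3 at 11.75 and 11.55. Other islet hormone genes had a median of 0.35 with 0 of 13 past the threshold (5 at an unadjusted p below 0.05, against 10.5% of all genes). In this list 11 fold changes were above 0, and 8 genes had both treated arrays above both untreated ones, against 13.6% of all genes. With the robust trended prior 2 of its members and 1 identity and secretion gene rose (0.795% of all genes). The transthyretin gene Ttr was at 12.0 on both and then at 12.5 and 12.6 (0.55, SE 0.09, adjusted p = 0.0891). Exocytosis genes had a median of 0.00 (0 of 15).

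No member passed in fatty acid oxidation and PPAR targets (median -0.10, 0 of 32), glycolysis (-0.03, 0 of 20), oxidative phosphorylation (-0.05, 0 of 43), antioxidant defence (0.00, 0 of 31), the proteasome (-0.05, 0 of 36), autophagy (0.05, 0 of 28), apoptosis (-0.05, 0 of 23), interferon-stimulated genes (-0.10, 0 of 25), immediate early genes (-0.10, 0 of 26), the circadian clock (0.03, 0 of 18) or sex-linked transcripts (0.12, 0 of 4). Against 10.5% of all genes, an unadjusted p below 0.05 was found for 10 of the 26 immediate early genes, 6 of the 32 fatty acid oxidation genes, 5 of the 25 interferon-stimulated genes, 4 of the 20 glycolysis genes and 3 of the 18 clock genes, and for 0 to 5 members of each of the other 6 lists. With the robust trended prior 0.795% of all genes rose and 0.959% fell. There 2 immediate early genes rose and 2 fell, 1 interferon-stimulated gene rose and 2 fell, and 2 proteasome genes fell. In the fatty acid oxidation and clock lists 1 gene each rose and 1 fell, and 1 antioxidant gene rose. The rest of these lists had none. Among cytokines and chemokines Ccl9 alone passed by limma (1 of 29, median -0.25), and in the hypoxia and glucose list Arrdc4 alone (1 of 19, median 0.00). With the robust trended prior 3 cytokine and chemokine genes fell. In that list 12 of the 29 had both treated arrays below both untreated ones, against 14.9% of all genes, and 1 had them above (13.6%). Nr4a1, an immediate early gene, was at 7.9 and 7.8 and then at 8.6 and 8.8 (0.85, SE 0.12, adjusted p = 0.0504).

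**Figure D5:**
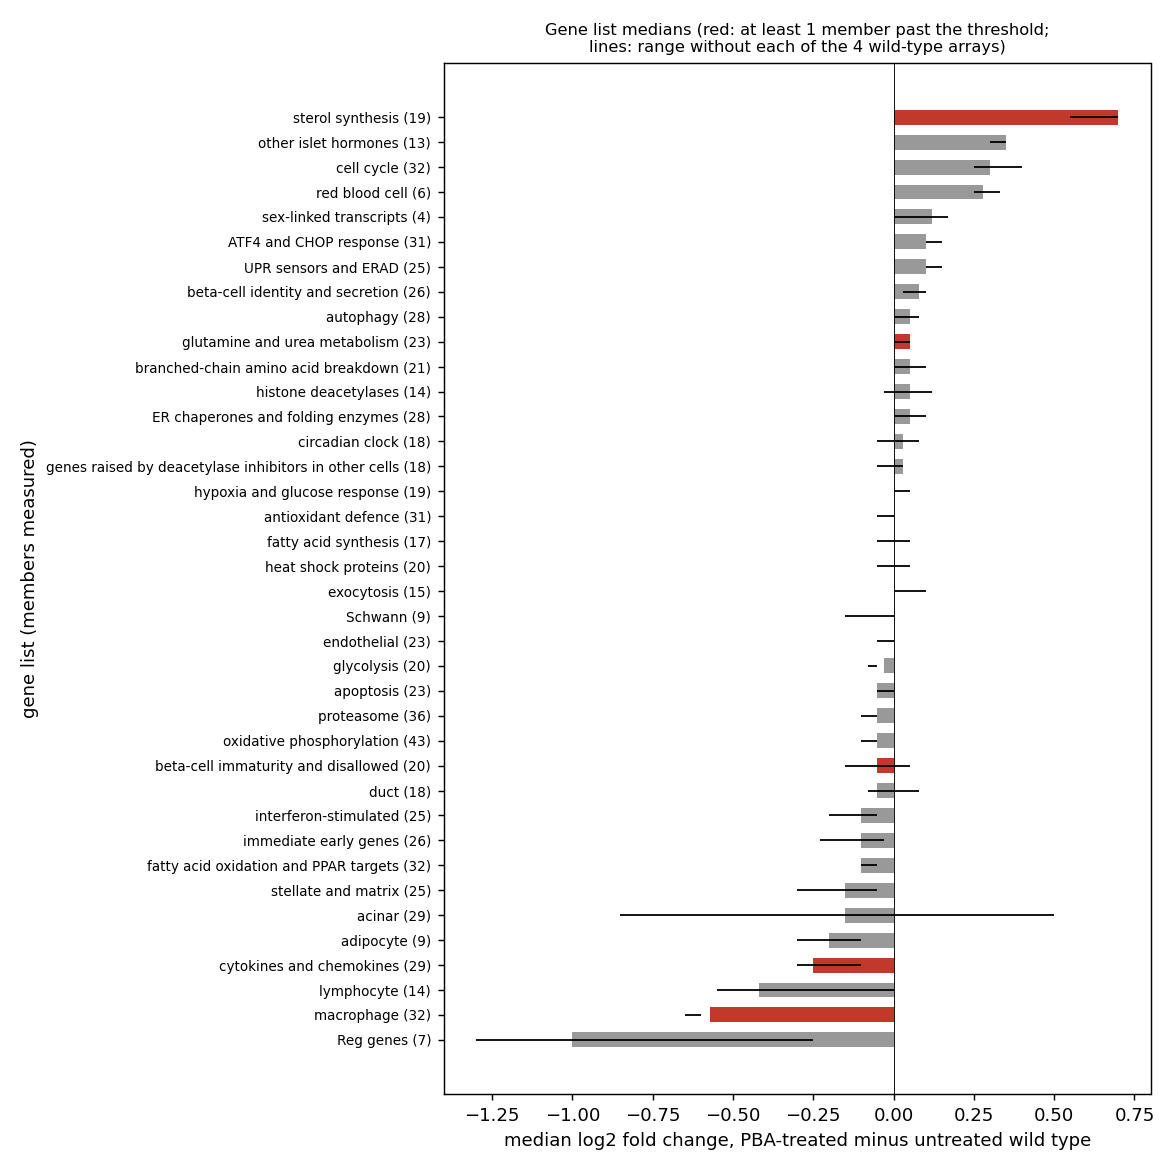
Median log2 fold change of PBA-treated over untreated wild-type islets in 38 gene lists (bars), with the number of measured members in brackets, the range of the median without each of the 4 wild-type arrays (lines), and lists with at least 1 called member in red. The sterol list lies at 0.70 and the macrophage list at -0.57, and the acinar list runs from -0.85 to 0.50.

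The same treatment was given to hIAPP mice. Their arrays entered the wild-type comparison through the estimate of the spread and the choice of probe sets, and not through the fold changes. In hIAPP islets 8.09% of all genes passed with PBA. Of the 50 genes, 18 did so in the same direction, 7 in the opposite one, and 25 did not pass. Npy rose in both genotypes (1.65 and 1.45, interaction adjusted p = 0.751). Lgals3 (-1.60 and -2.05), Serping1 (-1.05 and -1.05), C4b (-1.10 and -1.40) and Serpina3n (-1.65 and -1.35) fell in both, with interaction adjusted p of 0.440 to 1.000. The treated hIAPP arrays were near the untreated wild-type level for Serping1, at 9.6 and 9.7 against 9.8 and 9.7. Untreated hIAPP arrays were at 10.8 and 10.6.

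Of the 7 sterol genes that rose in wild-type islets, Tm7sf2 also passed in hIAPP islets (0.65, adjusted p = 0.0134), and the list's median there was 0.25. The interaction passed for Stard4 alone of the 19 (adjusted p = 0.0499), which changed by 0.75 in wild-type islets and by 0.00 in hIAPP islets. Msmo1 changed by 0.90 and 0.30 (interaction adjusted p = 0.126). Over all genes the interaction passed for 1.96%, and among the 50 genes for 25, a choice of genes that used the wild-type arm of that contrast. Dusp4 rose by 1.30 with PBA in wild-type islets and fell by 0.60 in hIAPP islets (interaction adjusted p = 0.0099), where the untreated level was already 7.0 and 7.3. Crybb3, at 4.5 with PBA in wild-type islets, was at 4.7 and 5.0 in untreated and again in treated hIAPP islets.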

How the data were processed

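Total RNA of islets was hybridised to Affymetrix arrays. The deposited table holds log2 expression values made by the authors with RMA (background subtraction, quantile normalisation, summary of the probes of a set) in the affy package, per the submitters' processing notes, version not given in the sources used here. The values are rounded to 1 decimal. Of 45141 probe sets, 104 are controls and 28898 name 1 gene by the platform annotation. The set with the highest mean over 8 arrays stood for a gene, which gave 17097 genes. Mafa, Ins1 and Iapp are not analysed here.

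One fit in limma 3.58.1 (R 4.3.3) of 4 group means on all 8 arrays had 4 residual and 3.27 prior degrees of freedom. Moderated two-sided tests were adjusted by Benjamini-Hochberg over all genes, with a threshold of 0.05. Rounding can make replicates identical, and the moderated variance keeps their SE above 0. The fit was checked on simulated data. Group levels are means with SD. Tables and plots used pandas 2.3.3 and matplotlib 3.10.9 in Python 3.11.15. The number of arrays, 2 a group, limits the precision.

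The comparison, its 38 gene lists and the rule for named genes were chosen with earlier results of these data known. The rule took up to 15 of the largest rises and 15 of the largest falls among called genes without overlap, up to 3 members of each list by p-value, and a set of named genes. The other called genes and the members of the 6 added lists were named after values were seen, and so were list members beyond the first 3. Lists were described by counts and medians and not tested. Sequences are RefSeq promoter windows of GRCm38.p6. Alternatives were single arrays left out, other subsets, normalisations, probe set rules, variance models and covariates.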

Additional observations from a re-analysis of the deposited data

Results flagged for a closer look

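Of the 50 genes called in wild-type islets, 25 differed in their PBA effect between hIAPP and wild-type mice by limma's interaction test at an adjusted p below 0.05, against 1.96% of all genes. The values that follow are the PBA effect in hIAPP islets minus that in wild-type islets (log2). The wild-type effect enters both the choice of the genes and the interaction, so the count among them is a description. For 8 of the 25 (Actn3, Ccl9, Ckap2, Crybb3, Lcn2, Mmp12, S100a8 and Ube2c) at least 1 group mean was under the background level of 4.69, so the size of their difference is uncertain.

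Among genes that rose in wild-type islets, the difference was -3.05 for Arrdc4 (adjusted p = 0.0054), -2.90 for Ube2c, -1.90 for Dusp4, -1.80 for Ckap2 and -1.65 for Stmn1, and each of these 5 fell in hIAPP islets with PBA. It was -1.45 for Sfrp5, -1.40 for Spon2, -1.35 for Higd1a, -1.35 for Upk3a, -0.75 for Stard4 and -0.75 for Tent5a, whose change in hIAPP islets did not pass.

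Among genes that fell in wild-type islets, the difference was 2.90 for Crybb3 (adjusted p = 0.0071), 1.65 for Erich6, 1.65 for Fmo1, 1.60 for Shisal2b, 1.55 for Actn3, 1.40 for Mettl7a1, 1.40 for Lcn2, 1.35 for Rgs4, 1.20 for Nav3, 0.85 for Stat3 and 0.75 for Apobec1. It was 1.75 for S100a8, which fell in both genotypes, with -2.95 in wild-type and -1.20 in hIAPP islets, and both treated levels lay near background, at 3.85 and 4.35, so neither size nor their difference is well measured. It was -3.05 for Mmp12 and -1.65 for Ccl9, which fell further in hIAPP islets, from a higher untreated level.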

How the results depend on the processing

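The count of 50 genes was 0 to 2 by limma with each of the 8 arrays left out in turn, where 1213 to 2882 genes had an unadjusted p below 0.05. It was 0 with only the 4 wild-type arrays (1804 at an unadjusted p below 0.05) and 0 without the first treated array of each genotype (1649). These fits hold fewer arrays and residual degrees of freedom. The count was 300 with an intensity trend and a robust prior together, which called all of the 50, 87 with a filter on dim genes, which tested fewer genes, and 2 when the test asked for more than a log2 change of 0.5. A fit with the replicate block gave 5. The remaining settings gave 35 to 69, and none of the 20 settings with 1 value per gene turned the direction of any of the 50. In settings that only left arrays out or changed the variance model or test, the direction could not turn, since the arrays of these genes did not overlap. An unmoderated test, which has no prior variance, gave 44 genes and shared 9 with the 50. In that test a gene whose rounded replicates are identical in every group has an SE of 0. Its count can therefore depend on the rounding and is no fair check of the 50. Replicate numbers did not pair the samples: same-numbered wild-type arrays deviated with a correlation of 0.01 and hIAPP arrays with 0.097. Calls lost by leaving arrays out are no sign of smaller effects at this number of arrays. The mean of a gene's probe sets kept 40 of the 50 calls, and there the fold changes themselves can differ. The test against a log2 change of 0.5 asks about the size of the effect. Levels under about 4.69 are near background, so folds there are uncertain.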

Other observations

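Genes with differences of at least 2-fold that did not pass numbered 20 upwards and 56 downwards, and in several of the latter 1 untreated array stood above the other 3. The B-cell gene Ms4a1 was at 7.9 on untreated wild type 1, 4.7 on untreated wild type 2, and 3.4 and 4.3 with PBA. The lymphoid chemokine gene Cxcl13 was at 11.4, 7.0, 7.0 and 7.7 in the same order, the antibody joining chain gene Jchain at 8.5, 5.3, 4.5 and 4.9, and the fibronectin gene Fn1 at 9.3, 6.7, 6.2 and 6.1. The acinar markers were also highest on this array, with a median of 12.00.

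The alpha-cell factor genes Irx1 and Irx2 were at 4.20 and 5.10 and at 5.05 and 5.90 in the means of untreated and treated wild-type islets (adjusted p = 0.293 and 0.301), while Gcg was at 12.95 and 13.00. The interleukin-1 decoy receptor gene Il1r2 was at 5.3 and 5.1 and then at 6.4 and 6.1 (adjusted p = 0.0782). The activity-regulated gene Npas4 was at 4.3 and 4.2 and then at 5.2 and 5.8 (adjusted p = 0.0782).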
